A study of Papio anubis with 40 samples.

Results

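Serum from 8 olive baboons (Papio anubis) was sampled at months 3, 6 and 9 after endometriosis had been induced, and the 3 draws of each animal were compared with one another. These are the 24 libraries labelled 3, 6 and 9 months, of 40 in the series, with 8 libraries a month, 1 per animal. The animals are PA8001, PA8003, PA8835, PA8872, PA8873, PA8912, PA8914 and PA8915. All of them had received menstrual tissue into the peritoneum by laparoscopy, a model of the human disease in which endometrium grows outside the uterus. The labels give "No treatment" for every draw, no strain and no age, and no animal without inoculation is among the samples. A difference between draws therefore cannot be told apart from age or season, and steadiness here is steadiness within animals that all carry the induced disease. The labels number the libraries animal by animal, so a difference between animals and an order of preparation cannot be told apart either.

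Transfer RNAs carry amino acids to the ribosome. Nucleases cut them, often in the anticodon loop, and the pieces (tRFs, tRNA-derived fragments) are found in blood, where 5' pieces of glycine, valine, glutamate and lysine tRNAs are known to be common. Such pieces travel in vesicles and in protein complexes. How far a circulating fragment moves between draws of 1 animal sets the smallest change that repeated sampling of that animal can show.

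In this serum 5' fragments made up 98.6% to 99.5% of the counts of each library, and fragments ending in CCA, the 3' end of a mature tRNA, 0.0278% to 0.270%. Valine fragments with anticodon AAC or CAC, which most sequences do not separate, held 45.6% of all counts and glycine fragments with anticodon CCC 37.5%. The sequence of the leading valine fragment is shown with 2 abundant variants, A24C and T16C, and with the 2 variants of this family that were named among the steadiest under TMM scaling. Capitals mark bases that differ from the first line, counted from 1 at the 5' end.

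tRF-31-79MP9P9NH57SD: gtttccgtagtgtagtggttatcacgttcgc
tRF-31-79MP9P9NHR7SD (A24C): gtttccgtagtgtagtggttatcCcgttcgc
tRF-31-79MP9PMNH57SD (T16C): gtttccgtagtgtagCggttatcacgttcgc
tRF-31-79MP9PMNH5ISD (T16C and G26A): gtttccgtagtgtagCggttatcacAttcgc
tRF-31-Q9MP9P9NH57SD (T2C): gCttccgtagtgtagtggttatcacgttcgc

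The leading glycine sequence occurred at several lengths, and from 27 to 32 nt its spread over draws followed the length under TMM scaling. Here the capitals mark the bases past the 27 nt form.

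tRF-27-Q1Q89P9L842: gcgccgctggtgtagtggtatcatgca
tRF-29-Q1Q89P9L84FS: gcgccgctggtgtagtggtatcatgcaAG
tRF-30-Q1Q89P9L8422: gcgccgctggtgtagtggtatcatgcaAGA
tRF-32-Q1Q89P9L8422Q: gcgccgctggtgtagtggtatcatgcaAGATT

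The fragments that moved most within animals included 1 of histidine tRNA, a glycine variant (C4T), a variant of the leading valine fragment (C25A) and internal pieces of aspartate tRNA. Capitals again mark bases that differ from the leading sequence of the family.

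tRF-30-PW5SVP9N15WV (His-GTG): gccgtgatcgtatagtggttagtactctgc
tRF-32-QMQ89P9L8422Q (Gly-CCC): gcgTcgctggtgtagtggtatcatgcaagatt
tRF-34-EH623K7SIR3DIY (Asp-GTC): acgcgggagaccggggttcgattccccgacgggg
tRF-31-79MP9P9NHO7SD (Val-AAC/CAC): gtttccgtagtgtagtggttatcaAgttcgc
tRF-33-L85DMKYUYRLHDY (Asp-GTC): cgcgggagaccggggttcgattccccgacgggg

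The table does not say from which gene copy a sequence came, so sequences of near-identical tRNA genes are not separated, and no positions in the baboon genome were analysed here. Library totals ran from 889540 counts (PA8835, month 9) to 6245450 (PA8914, month 9), with a median of 3381630. A fragment with 0 counts could still be present at up to 3 counts, which is 0.480 to 3.37 counts per 1000000 (CPM) of a library's total, a bound for counting error only. CPM values below are scaled with TMM factors, which set the bulk of the tested fragments equal between libraries and ran from 0.637 to 1.61. The month 3 library of PA8003 resembled those of other animals least, with a mean correlation of 0.843 over the tested fragments.

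Most of the sampled repertoire was rare and most of the counts were not. Of 42246 fragments with a count in the 24 libraries, 17732 had a single count, while 2155 had a count in every library and held 99.5% of all counts. In each animal 25.6% to 29.6% of its fragments were found in all 3 draws (median 26.6%), and these fragments held 99.7% to 99.8% of its counts. After every library was thinned to 889540 counts the median was 27.3% and 1315 fragments were in all 24 libraries. With at least 3 counts asked for in each draw, the median was 47.1%. Rare fragments were thus detected in some draws and not in others, while the abundant ones were found each time. A fragment with so few counts can be missed in a draw where it is present.

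The order of the abundant fragments was much the same from draw to draw. Of the 14 fragments that entered the top 10 of any library, 7 were in the top 10 of all 24. The valine fragment tRF-31-79MP9P9NH57SD ranked first in 22 libraries. It ranked 3 at month 3 of PA8003, where the 32 nt glycine fragment led, and 2 at month 3 of PA8914, where the 27 nt glycine fragment led. The 10 most abundant fragments together made up 69.0% to 79.4% of a library.

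No fragment passed the test between any pair of months. Of 2132 fragments with enough counts to test, 0 (0%) differed between months 6 and 3, 0 (0%) between months 9 and 6, 0 (0%) between months 9 and 3, and 0 (0%) in the joint test of the 3 months, at an adjusted p under 0.05 (edgeR's quasi-likelihood test with animal as a block, Benjamini-Hochberg adjustment). At an unadjusted p under 0.05 there were 56, 48, 57 and 48. The smallest adjusted p was 0.426, for month 9 against month 3. limma-voom called 0 in each of the 4 tests. DESeq2 called 0, 0, 7 and 0, and edgeR without the filter on low counts called 0, 0, 5 and 8. The median fragment had a log2 difference of -0.01 between months 6 and 3, 0.03 between months 9 and 6 and -0.00285 between months 9 and 3. TMM scaling sets the bulk of the fragments equal, so medians near 0 follow from the scaling and are no sign of steadiness. Of 89 5' fragments of 16 to 24 nt, 86 were lower and 3 higher at month 6 than at month 3. Over all 2132 these were 1090 and 1042. Of 63 Glu-CTC 5' fragments of 32 to 36 nt, 63 were lower at month 9 than at month 3, against 1078 of 2132. Such fragments are not independent.

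The fragments nearest to a call were mostly rare, and they are given as not passing. A 33 nt fragment of glutamate tRNA with anticodon CTC, tRF-33-87R8WP9N1EWJDW, was the only one above 100 CPM among the 5 smallest p-values for month 9 against month 3. Its CPM ran from 106 to 1165 at month 3 (median 408), from 43.1 to 902 at month 6 (median 189) and from 100.1 to 435 at month 9 (median 145). The ranges overlapped, and the animal with the lowest value at month 3, PA8915, was the 1 animal that was higher at month 9. The log2 difference between months 9 and 3 was -1.38 ± 0.36 (SE, 8 animals; 95% interval -2.13 to -0.62), with an adjusted p of 0.426 by edgeR and 0.0348 by DESeq2.

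Of the other fragments with the smallest p-values for month 9 against month 3, 3 were lower at month 9 in all 8 animals. They were the 54 nt valine fragment tRF-54-79MP9PMNH57S362VO0SR1Z (log2 difference -1.82 ± 0.45 SE), the 28 nt valine fragment tRF-28-79MP9P9NH5DE (-1.32 ± 0.33) and the internal Lys-CTT fragment tRF-36-S2P46INO86RM7KE (-1.72 ± 0.46), with mean levels between 3.78 and 9.14 CPM, near the limit of 3 counts in the shallower libraries. The glycine variant tRF-27-Q1Q8909L842 (T13G) was higher in 7 of 8 animals, by 0.97 ± 0.26, at a median of 50.9 CPM at month 3 and 93.8 CPM at month 9. Each of these had an adjusted p of 0.426 by edgeR. By DESeq2 it was 0.0257 for the valine fragments of 54 and 28 nt, and 0.0348 for the Lys-CTT fragment and the glycine variant. For month 9 against month 6 the same variant was 0.75 ± 0.26 higher in 7 of 8 animals (adjusted p = 0.989, edgeR). For month 6 against month 3 the smallest p belonged to tRF-31-1OR6QO004MR1D, a sequence of no assigned family that was lower in 7 of 8 animals, by a median of 10.2 against 3.93 CPM (log2 difference -1.99 ± 0.53, adjusted p = 0.995, edgeR).

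A p that misses the threshold does not show that months were equal, so the 95% interval of each difference was examined. For 928 of the 2132 fragments (43.5%) all 3 intervals lay within a 2-fold change in either direction, and for 48 within 1.5-fold. The median interval reached 0.72 log2 units to either side of the estimate. Among 5' fragments 886 of 1789 (49.5%) had all 3 intervals within 2-fold, against 35 of 300 internal ones (11.7%) and 7 of 43 ending in CCA (16.3%). The number within 1.5-fold fell when an animal was left out: it was 2 without PA8835 or PA8915, 3 without PA8872, 5 without PA8001 or PA8912 and 13 without PA8914. A fit to fewer animals is also less precise, and the reason for the fall was not tested.

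Summed over each tRNA, no month difference passed, and those of the large families were small beside their intervals. Of 27 families, 0 (0%) passed for months 6 against 3, 9 against 6 and 9 against 3, and 0 (0%) jointly. edgeR pooled the spread over the families, so their p-values and intervals rest on the pooled spread and not on each family's own. The valine AAC/CAC family differed by 0.15 (95% interval -0.35 to 0.65) between months 6 and 3, by -0.05 (-0.55 to 0.45) between months 9 and 6 and by 0.10 (-0.40 to 0.61) between months 9 and 3, in log2 units. For Gly-CCC these were -0.27 (-0.79 to 0.25), 0.38 (-0.14 to 0.89) and 0.11 (-0.40 to 0.62). The glutamate family Glu-CTC differed by 0.01 (-0.59 to 0.62), -0.13 (-0.73 to 0.47) and -0.11 (-0.72 to 0.49). The lowest unadjusted p among families at month 6 against month 3 was that of Arg-TCT, a rare family of 28.6 CPM, at -1.15 (-2.04 to -0.26; adjusted p = 0.317, edgeR), which passed once PA8915 was left out (adjusted p = 0.0253). For month 9 against month 3 the intervals of 2 rare families lay below 0. Leu-TAA (13.5 CPM) differed by -1.32 (-2.36 to -0.28, higher in 2 of 8 animals; adjusted p = 0.341, edgeR). Cys-GCA (76.2 CPM) differed by -0.90 (-1.70 to -0.10, higher in 1 of 8 animals; adjusted p = 0.363, edgeR).

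**Figure D1:**
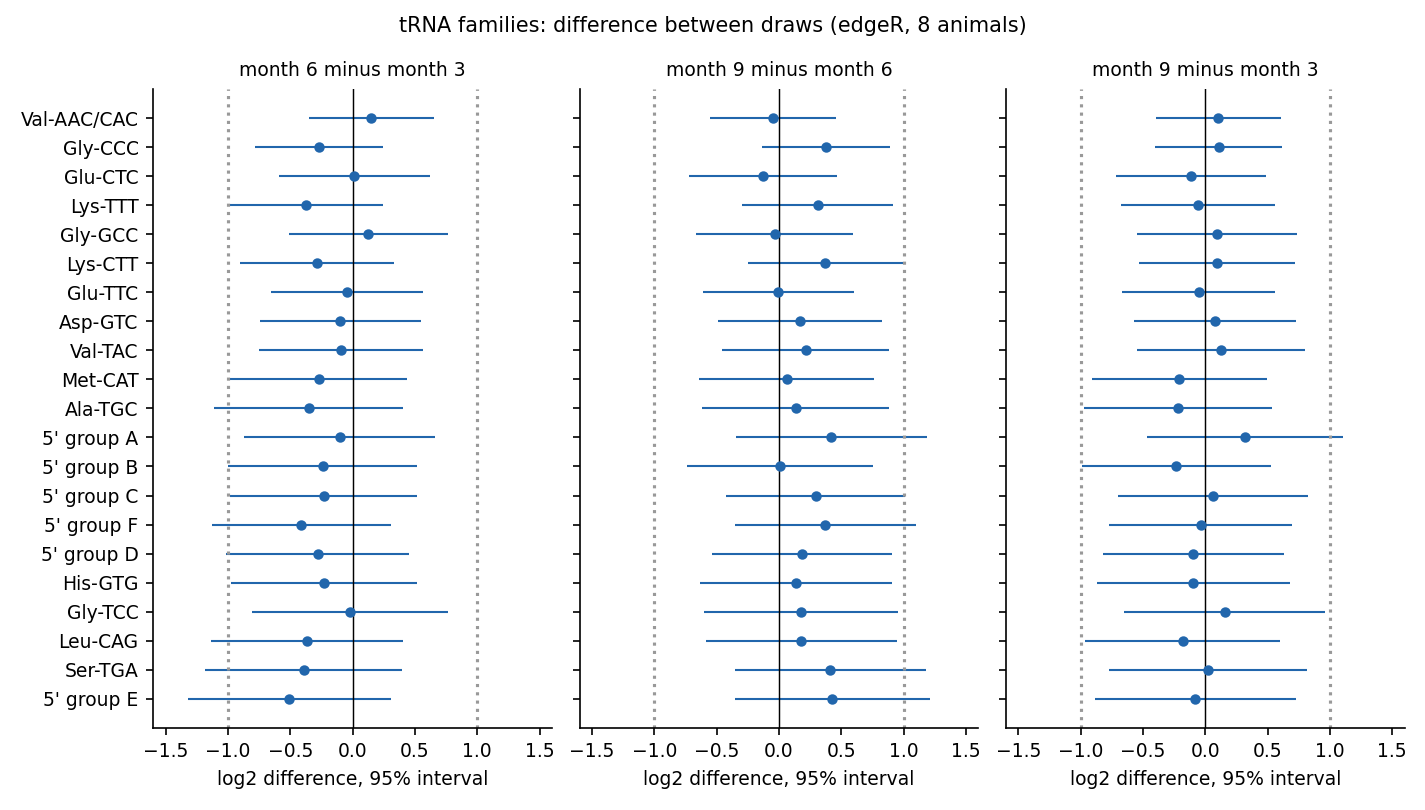
Log2 difference between 2 draws for the 21 tRNA families with a mean of at least 100 CPM, with 95% intervals (edgeR, 8 animals). The intervals rest on a spread pooled over families, and dotted lines mark a 2-fold change. All estimates lie between -0.51 and 0.43, and each interval includes 0.

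No measure of the makeup of the libraries passed between months. The share of counts from fragments of 25 to 29 nt averaged 26.6% ± 7.5 (SD, n = 8) at month 3, 23.9% ± 4.75 at month 6 and 29.0% ± 3.78 at month 9. Between months 6 and 9 it was 5.13 percentage points higher at month 9 (SD of the differences 5.77, higher in 6 of 8 animals; exact sign-flip p = 0.0547, adjusted p = 0.422 over 18 tests of 6 measures). The share of 30 to 36 nt fragments was 5.18 points lower at month 9 than at month 6 (lower in 6 of 8 animals; exact p = 0.0469, adjusted p = 0.422). No adjusted p among the 18 tests was lower than these, and 8 animals allow an exact two-sided p no smaller than 0.00781, which is 0.141 after adjustment if 1 of the 18 tests alone reaches it. A single measure could therefore not pass, and these tests do not show that the months were alike. The 25 to 29 nt share ranged from 12.8% (PA8872, month 3) to 35.9% (PA8914, month 3), with a within-animal SD of 6.27 points and an SD of 2.47 points between the means of the animals. The SD between draws of 1 animal was thus the larger, but a mean of 3 draws varies less than a single draw. The 2 SDs are therefore not alike, and whether animals differed in this share was not tested.

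The valine and glycine families took up most of each library, and their shares moved against each other between draws. Val-AAC/CAC held 31.2% of counts (PA8003) to 63.7% (PA8872) at month 3, with a median of 39.0%, 40.2% to 57.0% (median 51.7%) at month 6 and 36.5% to 55.1% (median 43.3%) at month 9. Gly-CCC held 19.4% (PA8872) to 54.5% (PA8003) at month 3, with a median of 41.5%, 22.4% to 46.9% (median 33.4%) at month 6 and 31.9% to 49.2% (median 41.4%) at month 9. The animals with the most extreme shares at month 3 had shares within the range of the others at month 6. Shares of 1 library sum to a fixed total, so a rise of either family lowers the other.

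Spread within an animal was measured as the SD of log2 CPM over its 3 draws, averaged over the animals as variances. Its median was 0.62 log2 units over the 2132 tested fragments and 0.52 over the 298 with a mean of at least 100 CPM, for which counting alone would give a median of 0.06. Spread differed between kinds of fragment. Its median was 0.58 in 5' fragments, 0.77 in those ending in CCA and 0.85 in internal ones. Among 5' fragments it was 0.82 at 16 to 24 nt, 0.57 at 25 to 29 nt, 0.53 at 30 to 31 nt, 0.67 at 32 to 36 nt and 1.04 at 37 nt and longer. Counting alone would give medians of 0.27 in 5' fragments, 0.37 in CCA fragments and 0.43 in internal ones, which were rarer. By length of the 5' fragments it would give 0.36, 0.30, 0.25, 0.25 and 0.41, in the order above. Among 5' fragments of at least 100 CPM the median spread was 0.56 at 16 to 24 nt (7 fragments) and 0.40 at 25 to 29 nt (92). It was 0.45 at 30 to 31 nt (119) and 0.60 at 32 to 36 nt (72), so the order by length changed.

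**Figure D2:**
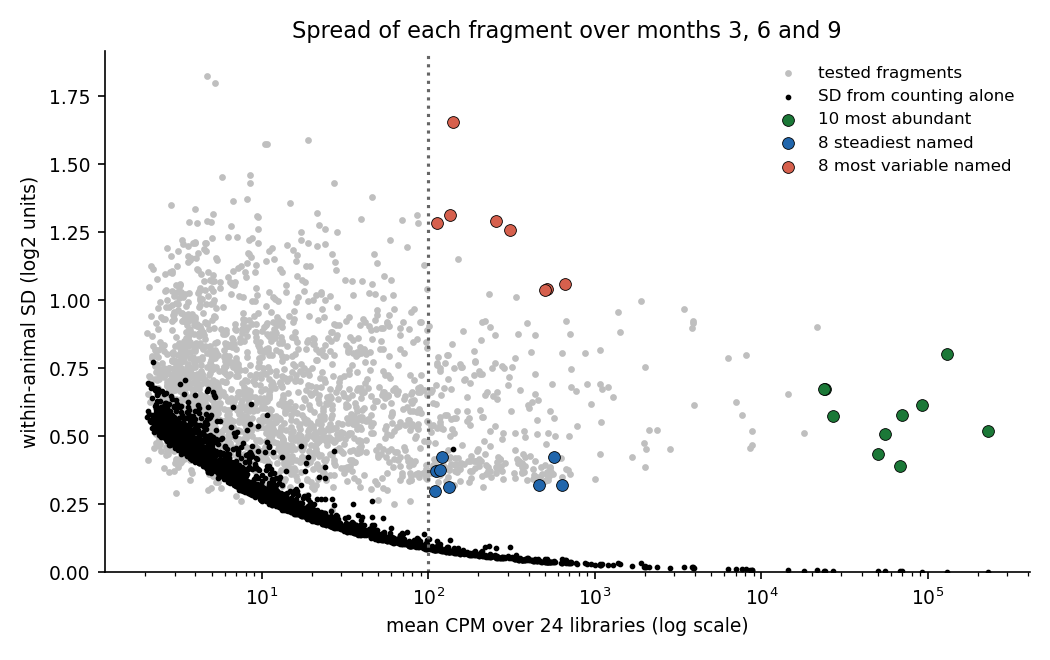
Within-animal SD over months 3, 6 and 9 (log2 units) against mean CPM (log scale) for 2132 fragments in grey, with the SD that counting alone would give in black; the dotted line marks 100 CPM. The 8 steadiest named fragments (blue) lie between 0.30 and 0.43, the 8 most variable (red) between 1.04 and 1.65, and the 10 most abundant (green) between 0.39 and 0.80.

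Over the fragments of at least 100 CPM, the smallest spreads under TMM scaling belonged to 5' fragments much rarer than the leading ones, mostly variants that differ from them by a base. By a rule that takes at most 2 per family and class, 8 were named: 2 each of Gly-CCC, Val-AAC/CAC and Lys-TTT, 1 of Glu-TTC and 1 of a sequence shared between families. The Glu-TTC member, tRF-32-86J8WPMN1E8YN (0.43), carries no substitution and is a length form. The unsubstituted 23 nt form of the leading valine sequence, tRF-23-79MP9P9NDD, had an SD of 0.35 at 331 CPM but was not named by this rule. The glycine variant tRF-29-Q1Q8VP9L84FS (G12A) had a within-animal SD of 0.30 at a mean of 110.2 CPM. Its CPM ran from 59.0 to 168 at month 3, from 56.8 to 171 at month 6 and from 65.0 to 152 at month 9, with medians of 116, 104 and 114. Its highest draw exceeded its lowest by a median of 1.34 times over the animals and at most 2.00 times, in PA8872.

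The valine variant tRF-31-79MP9PMNH5ISD (T16C and G26A) was steady at a higher level, with a mean of 633 CPM and a within-animal SD of 0.32. At months 3, 6 and 9 it measured 276, 338 and 355 CPM in PA8912, 516, 569.9 and 520.0 CPM in PA8914, and 878, 723 and 1344 CPM in PA8001. PA8912 stayed lowest at each month, and its 3 draws lay below every draw of the other animals. The variant T2C, tRF-31-Q9MP9P9NH57SD, had a within-animal SD of 0.32 at 464 CPM, with month medians of 388, 507 and 454 CPM. The lysine variants tRF-31-PS5P4PW3FJHP0 (A31G) and tRF-32-PS5O4PW3FJHP1 (G10A), at 112 and 117 CPM, had within-animal SDs of 0.37 and 0.38.

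The most abundant fragments were less steady on this scale. The leading valine fragment tRF-31-79MP9P9NH57SD ran from 101099 CPM (PA8003) to 320708 CPM (PA8872) at month 3, from 106235 to 346625 CPM at month 6 and from 104187 to 332780 CPM at month 9. Its medians were 225807, 218055 and 245299 CPM, and its within-animal SD was 0.52. Some animals hardly moved: PA8915 had 233427, 200559 and 243337 CPM. Others moved by over 3-fold: PA8003 had 101099, 346625 and 302827 CPM. Its A24C variant tRF-31-79MP9P9NHR7SD, at a mean of 68266 CPM, had an SD of 0.39, the smallest among the 10 most abundant.

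From 27 to 32 nt in the glycine ladder, the shorter the fragment, the more it moved. The within-animal SD was 0.80 for the 27 nt form at a mean of 129593 CPM, 0.61 at 29 nt (92586 CPM), 0.58 at 30 nt (69701 CPM), 0.45 at 31 nt (2828 CPM) and 0.44 at 32 nt (50360 CPM). The SD between the means of the animals went the other way, from 0.20 at 27 nt to 0.50 at 32 nt. The 27 nt form measured 209881 CPM at month 3 and 71112 CPM at month 9 in PA8873, against 53259 and 270405 CPM in PA8003. These forms share their sequence and libraries, so the order is a description with no test. Over the lengths given next, Glu-CTC, Lys-TTT and Gly-GCC had much the same order. It did not extend past them: Glu-CTC had 0.74 at 28 nt and 1.01 at 33 nt, and Lys-TTT 0.69 at 28 nt. The glycine ladder itself had 0.79 at 26 nt and 0.82 at 33 nt. The leading Glu-CTC sequence had SDs of 0.93, 0.80, 0.67 and 0.65 at 29, 30, 31 and 32 nt, and the leading Lys-TTT sequence 0.81, 0.79, 0.67 and 0.46. The leading Gly-GCC sequence had 1.00 at 27 nt, 0.90 at 28 nt, 0.88 at 29 nt, 0.90 at 30 nt, 0.75 at 31 nt and 0.61 at 32 nt. In Val-AAC/CAC the leading sequence had the same order from 29 to 32 nt, with SDs of 0.76, 0.58, 0.52 and 0.51. Outside these lengths it had 0.39 at 28 nt and 0.62 at 33 nt. The order held only from 30 to 32 nt in Lys-CTT, with 0.77, 1.02, 0.96 and 0.68 at 29, 30, 31 and 32 nt. The same was true of Glu-TTC, with 0.64, 1.13, 0.75 and 0.43 at these lengths and 0.92 at 33 nt.

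Which fragments count as steadiest depended on the scaling. With library totals in place of TMM factors, so that a value is a share of all counts, none of the 8 steady variants was named again. The leading valine fragment then had a within-animal SD of 0.26 in place of 0.52, and its T16C variant tRF-31-79MP9PMNH57SD 0.26 in place of 0.58. The glycine variant tRF-29-Q1Q8VP9L84FS had 0.54 in place of 0.30. The 27 nt glycine form had 0.51, the 29 nt form 0.39, the 30 nt form 0.38 and the 32 nt form 0.51, so the order by length did not hold on this scale. The valine variant tRF-31-79MP9PMNH5ISD was steady on both (0.32 with TMM, 0.28 with totals), as was tRF-31-79MP9P9NHR7SD (0.39 and 0.30). With totals that limit left them out, while the Glu-TTC variant tRF-31-86V8WPMN1E8Y0 was named at 0.35.

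**Figure D3:**
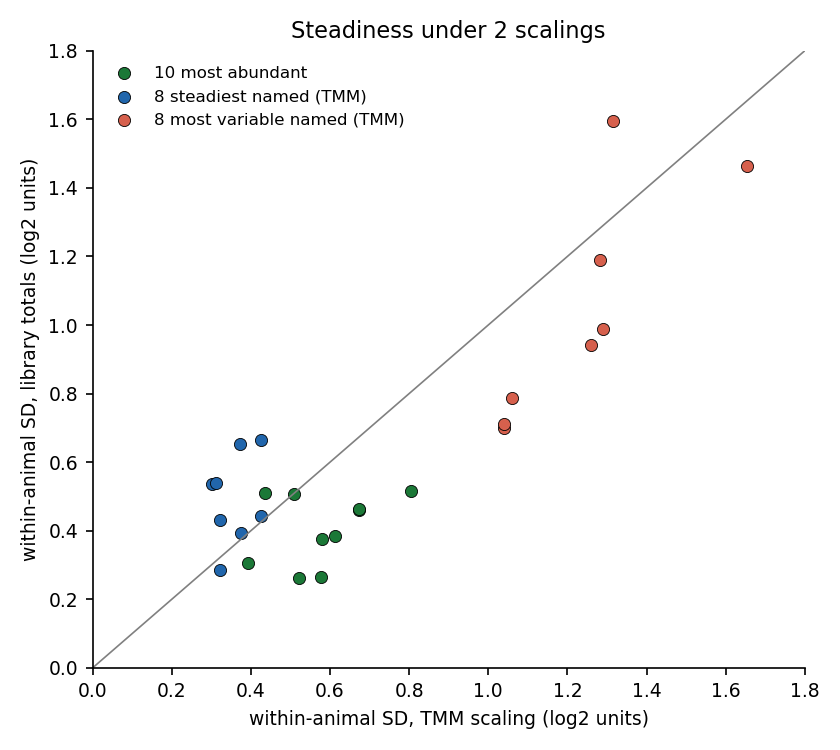
Within-animal SD (log2 units) under TMM scaling and with library totals for the 10 most abundant fragments (green), the 8 steadiest (blue) and the 8 most variable (red) named under TMM; the line marks equal values. The leading valine fragment moves from 0.52 to 0.26, while the variable fragments stay at 0.70 or above on both axes.

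The most variable fragments kept more of their place. Of the 8 named under TMM, 5 were named again with library totals. The histidine fragment tRF-30-PW5SVP9N15WV had the largest spread of the 298 both within animals, an SD of 1.65, and between them, 2.80. Leaving out the month 3 library of PA8003, where it had 0 counts, gave a within-animal SD of 1.303. For this fragment counting alone would give an SD of 0.45, against a median of 0.06 over the 298. At 0 counts the log2 value is set by the prior count, so its SDs rest in part on draws with few counts. Its mean of 142 CPM came mostly from PA8914 and PA8873. Its CPM at months 3, 6 and 9 was 712, 461 and 609 in PA8914, and 579, 435 and 27.5 in PA8873. It was 52.1, 57.8 and 19.5 in PA8872, 48.1, 52.5 and 184 in PA8915, and 24.4, 17.3 and 48.9 in PA8912. In PA8835 it was 8.88, 3.29 and 1.39. PA8001 had counts of 3, 0 and 11 and PA8003 counts of 0, 73 and 67, where a count of 0 allows up to 1.78 CPM and 1.98 CPM of the library total. PA8914 was thus above every other animal at each month, and PA8873 lay next below it at months 3 and 6 and among the others at month 9.

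The glycine variant tRF-32-QMQ89P9L8422Q (C4T) owed its place to a single library. It measured 1964 CPM at month 3 of PA8003 and 38.0 and 35.4 CPM at that animal's later draws, while the other 7 animals ran from 13.3 to 92.6 CPM at month 3. Its within-animal SD was 1.31 with that library and 0.62 without it. The valine variant tRF-31-79MP9P9NHO7SD (C25A), at a mean of 112 CPM, had an SD of 1.28, and 0.98 without the same library. It ran from 9.60 CPM (PA8003) to 215 CPM (PA8872) at month 3, from 39.7 to 248 CPM (PA8003) at month 6 and from 37.6 to 206 CPM at month 9. A variant of the leading valine fragment was thus among the most variable as well as others among the steadiest. The aspartate pieces tRF-34-EH623K7SIR3DIY and tRF-33-L85DMKYUYRLHDY, which overlap in sequence, had SDs of 1.29 and 1.26 with the month 3 library of PA8003 and 1.07 and 1.12 without it. Of the remaining variable fragments, tRF-35-LPD3387SFRJ4O1 and tRF-34-LPD3387SFRJ4HR, internal pieces of the Val-TAC tRNA that differ by their last base, had SDs of 1.04 each. They peaked at month 9 of PA8001, at 2939 and 2754 CPM, where the medians of that month were 393 and 406 CPM.

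**Figure D4:**
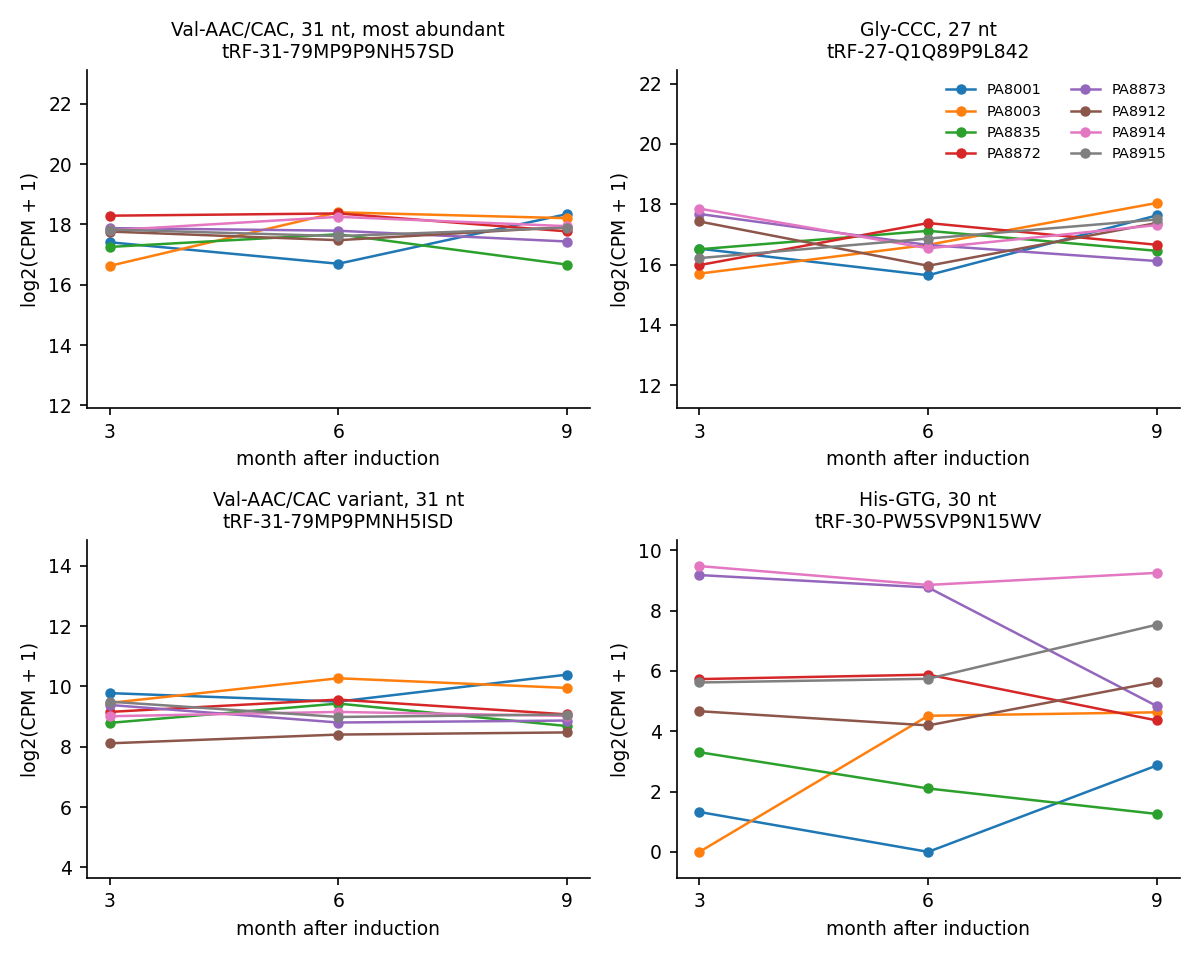
Log2(CPM + 1) at months 3, 6 and 9 after induction for 4 fragments, 1 line per animal, with the same span on each vertical axis. The lines of the histidine fragment keep PA8914 on top at all 3 months, while those of the 27 nt glycine fragment cross.

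By family, within-animal SD was 0.43 for Val-AAC/CAC, 0.50 for Glu-TTC, 0.52 for Asp-GTC, 0.53 for Gly-CCC, 0.54 for Glu-CTC, 0.57 for Lys-TTT, 0.58 for Met-CAT, 0.65 for Lys-CTT, 0.69 for Val-TAC, 0.77 for Gly-GCC, 0.79 for Ala-TGC and 0.80 for His-GTG. With library totals these were 0.25, 0.32, 0.41, 0.34, 0.42, 0.41, 0.35, 0.50, 0.36, 0.51, 0.50 and 0.70, in the same order. The valine AAC/CAC family had the lowest value and the histidine family the highest of those given here on both scales.

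More fragments passed among animals than among months. In the joint test of animals, 152 of 2132 fragments passed (7.13%; edgeR, adjusted p under 0.05), and 680 had an unadjusted p under 0.05. limma-voom called 91, of which 84 were among the 152, and DESeq2 called 689, which included all 152. Without PA8914 the count was 20, without PA8001 68 and without PA8835 83. PA8914 was the highest animal in 70 of the 152 and PA8001 the lowest in 50, against 341 and 399 of all 2132 tested. The month 3 library of PA8003 weighed the other way: without it 236 passed.

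Short 5' fragments of the glycine tRNA with anticodon GCC made up the largest group of calls. Of 103 of them at 25 to 29 nt, 38 passed (36.9%), against 1 of 110 at 30 to 31 nt (0.909%) and 7.13% of all fragments. PA8873 was highest in 19 of the 38, PA8914 in 18 and PA8001 lowest in 32, and 13 remained without PA8914. Many of these are variants of a few sequences, so they are not independent. The most abundant of those named, tRF-27-P4R8YP9LON3, had 4862, 4796 and 4811 CPM at months 3, 6 and 9 in PA8914 and 341, 101 and 423 CPM in PA8001. The 3 draws of PA8914 lay above every other draw. Beside the draws of PA8001, month 3 of PA8003 (156 CPM) and month 9 of PA8835 (411 CPM) were the only ones below 423 CPM. The fragment had a between-animal SD of 1.36 and a within-animal SD of 1.00 (adjusted p = 0.0264, edgeR). Without PA8914 the adjusted p was 0.164.

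In Lys-TTT 8 of 20 were called at 25 to 29 nt, 0 of 115 at 30 to 31 nt and 8 of 62 at 32 to 36 nt. In Gly-CCC these were 3 of 264, 13 of 118 and 5 of 83. The lysine fragment tRF-29-PS5P4PW3FJF2 (between-animal SD 1.05, within-animal SD 0.81, adjusted p = 0.00872) and the Glu-TTC variant tRF-31-86V8WPMN1E8Y0 (C6T; 0.82 and 0.63, adjusted p = 0.0203) were also highest in PA8914, and neither passed without it (edgeR, adjusted p = 0.115 and 0.232). Among CCA fragments the direction differed: tRF-42-S5QKF1R3WE8RO86J2 of Asp-GTC had 110.0, 115 and 264 CPM in PA8835 and 14.5, 37.8 and 32.8 CPM in PA8914. It passed at an adjusted p of 0.0110 (edgeR), with 5 of the 6 CCA fragments called being highest in PA8835 and 4 lowest in PA8914. Without PA8914 0 of the 6 passed. All 6 came from Asp-GTC, so they are not independent. The 264 CPM belong to the month 9 library of PA8835, the shallowest, which was also highest in its share of CCA fragments (0.270%). PA8003 had 196, 102 and 146 CPM of tRF-42-S5QKF1R3WE8RO86J2 at months 3, 6 and 9. Of the 8 steadiest, 2 also passed the test among animals: the valine variant tRF-31-79MP9PMNH5ISD (adjusted p = 0.0395) and the lysine variant tRF-32-PS5O4PW3FJHP1 (adjusted p = 0.0230). Neither passed in edgeR with library totals (adjusted p = 0.105 and 0.108) or without PA8914 (0.107 and 0.0693).

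Among families 5 of 27 differed between animals (18.5%): His-GTG, Cys-GCA, 1 of the Leu-TAA groups and 2 groups of 5' sequences whose anticodon could not be read. All 5 were highest in PA8914. His-GTG held 0.0814%, 0.0557% and 0.0661% of the counts of PA8914 at months 3, 6 and 9, 0.0664%, 0.0656% and 0.00935% of those of PA8873, and 0.00219% to 0.0228% in the 18 libraries of the other animals. Its between-animal SD was 1.66 and its within-animal SD 0.80. edgeR pooled the spread over all 27 families, so its adjusted p of 3.57e-18 rests on that pooled spread. Without PA8914 the adjusted p was 4.27e-09. Of the 5 families only 2, His-GTG and a group without a read anticodon (adjusted p = 0.0120), passed without PA8914. The calls of the other such group (0.0724), Cys-GCA (0.529) and the Leu-TAA group (0.534) were lost (edgeR). The large families did not pass the test among animals. Their adjusted p was 0.719 for Val-AAC/CAC, 0.797 for Gly-CCC, 0.252 for Glu-CTC, 0.132 for Lys-TTT and 0.132 for Gly-GCC (edgeR). A missed threshold does not show that the animals were alike in these families.

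**Figure D5:**
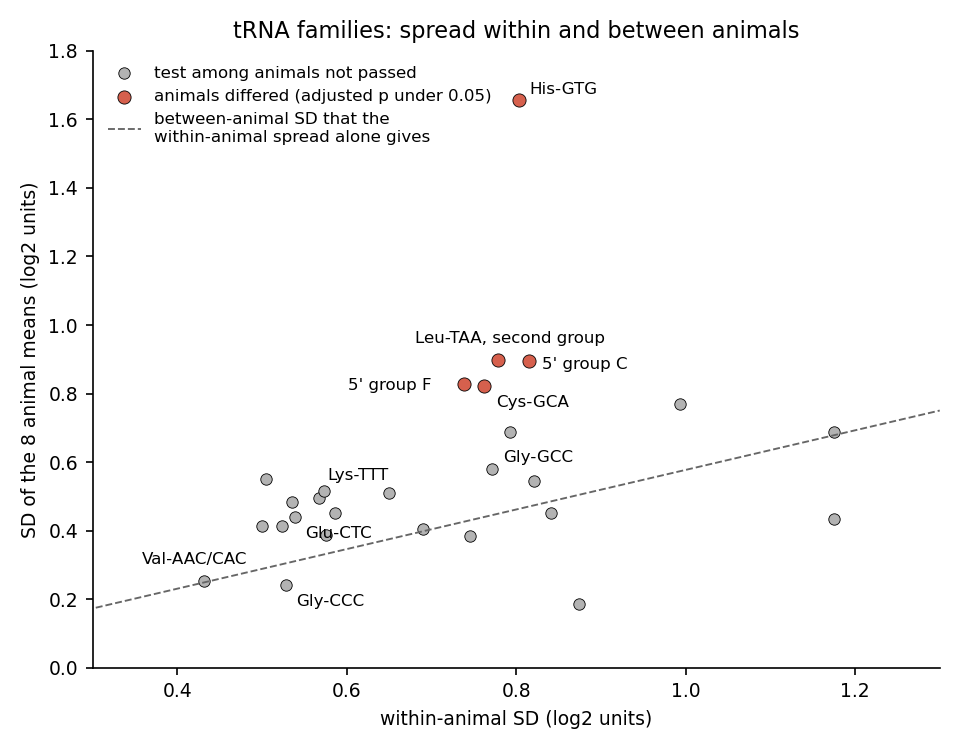
SD of the 8 animal means against within-animal SD (log2 units) for 27 tRNA families, with the 5 that passed the test among animals in red; the dashed line gives the SD that 3 draws with the within-animal spread would produce alone. His-GTG lies highest, at 1.66, and Gly-CCC lies below the line, at 0.24.

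Over all tested fragments, draws of 1 animal resembled each other more than draws of different animals by a small margin. The mean Pearson correlation of log2 CPM was 0.922 over 24 same-animal pairs (range 0.851 to 0.965) and 0.898 over 252 pairs of different animals (0.749 to 0.971), across fragments, which are not independent. The ranges overlapped almost fully. PA8915 was the most alike over its draws, with correlations of 0.951 to 0.965, and PA8003 and PA8873 the least, with lowest values of 0.853 and 0.851, both between months 3 and 9.

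Fragments were also grouped into lists from earlier work. The lists differ in abundance, and the difference between them was not tested. The serum list, 1558 tested 5' fragments of the tRNAs that commonly dominate this fluid (Gly-GCC, Gly-CCC, Glu-CTC, Val-AAC/CAC, Lys-CTT, Lys-TTT and His-GTG), had a median within-animal SD of 0.57, with 103 called between animals (6.61%). The 1175 fragments of glutamate, aspartate, glycine and tyrosine tRNAs, from which fragments that bind the RNA-binding protein YBX1 are known, had 0.61, with 88 called (7.49%). The 115 tested 5' fragments of aspartate, histidine and Lys-CTT tRNAs, described as dependent on sex hormones, had 0.71, with 16 called (13.9%). Of these calls 11 were of Lys-CTT, 3 of His-GTG and 2 of Asp-GTC, and without PA8914 1, 1 and 0 of them remained. The 17 5' fragments of alanine and cysteine tRNAs that begin with a run of guanines had 0.89, with 3 called (17.6%), and the 43 CCA fragments 0.77, with 6 called. The same values over all tested fragments were 0.62 and 7.13%. Counting alone would give medians of 0.26, 0.27, 0.46, 0.35 and 0.37 in these lists, in the order given, and 0.29 over all tested fragments. Among members of at least 100 CPM the medians were 0.50 for the serum list (273 fragments), 0.50 for the YBX1 list (175) and 0.81 for the hormone list (6), against 0.52 over all 298. In each list 0 fragments passed between any pair of months. The most abundant members of the hormone list, 3 Lys-CTT fragments, had within-animal SDs of 0.68 to 0.96. The leading alanine fragment, tRF-30-RK9P4P9L5HMV, had 0.93, from 72.2 CPM (PA8001, month 6) to 2468 CPM (PA8873, month 3).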

How the data were processed

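Small RNA from 0.5 mL of serum per draw was sequenced on a NovaSeq X with molecular identifiers assigned at cDNA synthesis, per the labels' protocols. The authors deposited whole-number counts per fragment sequence and library, with no scaling, and a second table that gives each fragment's sequence. The aligner and reference were not given in the sources used here, nor was it stated whether identifiers were collapsed. The submitters' processing notes list limma, edgeR and R 4.5.0.

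Of 60201 lines, 1614 had no identifier (0.0781% of counts), each with an unread base, and were left out. Families were read from the sequences (all 40 libraries, naming only): the anticodon in fragments of at least 42 nt, passed on to fragments within 2 mismatches over the first 31 bases. They held 99.7% of counts. The class 5' holds fragments whose first base lies at most 2 bases from a mature tRNA's start.

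The 24 libraries were fitted with edgeR 4.0.16 (R 4.3.3; filterByExpr with a minimum count of 10, TMM, month plus animal, robust quasi-likelihood); 2132 fragments and 27 families were tested. Animals pair the draws, so the animal is a block; 18 of 24 same-animal pairs correlated above 0.1 in deviations from month means. Spread used log2 CPM with a prior count of 2. Library measures had exact two-sided sign-flip tests. Scripts were tested on simulated data. limma-voom (limma 3.58.1), DESeq2 1.42.0, other scalings and filters, and each animal or 2 single libraries left out were alternatives; the 2 single libraries were chosen after seeing the data.

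Named fragments were the 10 most abundant; the 8 steadiest, the 8 most variable and the 10 with the largest ratio of between- to within-animal SD among those called, all at 100 CPM or more with at most 2 per family and class; the 5 smallest p-values of each month pair; families of at least 100 CPM; and, per list, its 3 members with the highest mean CPM. The members and lists were chosen with earlier results of these data known.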

Additional observations from a re-analysis of the deposited data

Results flagged for a closer look

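In a group of 8 libraries of 1 month, the gap of a value to the nearest other value was taken as a share of the whole range. CPM values were compared on a log scale and percentages as they stand. A value was set apart where this share exceeded Dixon's 95% critical value. Of 249 such groups 13 held one, and chance gives about 1 in 20.

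At month 3 PA8003 was highest in the share of CCA fragments, at 0.2212% against 0.1159% in the next library. It was also highest in the glycine variant tRF-32-QMQ89P9L8422Q, at 1964 CPM against 92.59 CPM, and lowest in the alanine fragment tRF-31-RK9P4P9L5HMVE, at 4.266 CPM against 27.6 CPM. PA8872 was highest at that month in the 32 nt valine fragment tRF-32-79MP9P9NH57SJ, at 136304 CPM (1.363e+05) against 5.716e+04 CPM. PA8001 was lowest in the valine variant tRF-28-79MP9P9NH5DE, at 2.504 CPM against 5.166 CPM.

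At month 6 PA8873 was lowest in the share of 5' fragments, at 98.84% against 99.18%. PA8872 was lowest in the Lys-CTT fragment tRF-36-S2P46INO86RM7KE, at 0.7179 CPM against 3.498 CPM, and PA8003 was highest in the family Met-CAT, all fragments of methionine tRNA summed, at 3097 CPM against 1575 CPM.

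At month 9 PA8835, the shallowest library, was highest in the share of CCA fragments, at 0.2704% against 0.09%, and lowest in the valine variant tRF-31-79MP9P9NHR7SD, at 3.632e+04 CPM against 5.999e+04 CPM. PA8914 was lowest in both steady glycine variants, tRF-29-Q1Q8VP9L84FS at 65.02 CPM against 103.2 CPM and tRF-29-Q1Q89P9L84F6 at 72.43 CPM against 120.2 CPM. PA8001 was listed at 0 counts in tRF-28-79MP9P9NH5DE, against 1.392 CPM in the next library.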

How the results depend on the processing

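No month pair or joint test gained a call under library totals, RLE scaling, limma-voom, a minimum count of 50, the fit over all 40 libraries or without either single library. For month 9 against month 3 DESeq2 called 7 fragments and the fit with no filter 5, which also called 8 in the joint test of months. With 1 animal left out the joint test called 0 to 1 and the families of month 6 against month 3 0 to 1, both through PA8915. Without the animal as a block the months called 0 fragments, the dispersion (biological coefficient of variation) was 0.528 in place of 0.445, 736 fragments had all intervals within 2-fold and 3 within 1.5-fold. The calls among animals depended more on the processing: DESeq2 gave 689, limma-voom 91, no filter 587, a minimum count of 50 gave 56 and leaving out the month 3 library of PA8003 236, while leaving out 1 animal gave 20 to 188. For families library totals gave 12, DESeq2 8, no filter 11, a minimum count of 50 gave 10, and leaving out 1 animal 2 to 10. The fragments with all intervals within 2-fold numbered 591 at a minimum count of 50. Those within 1.5-fold numbered 4 with library totals, 5 with no filter, 31 at a minimum count of 50, 9 without the month 9 library of PA8835 and 2 to 42 with 1 animal left out. The cause of these shifts was not tested. Of 240 values of the animal test for named fragments and families 38 no longer passed, and of 705 within-animal SDs 7 moved beyond the spread between animals. Depth limits the rare fragments: with libraries thinned to 889540 counts 1315 fragments were in all 24 libraries, and with at least 3 counts the share in all draws was 47.1%.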
